A study of Mus musculus with 32 samples.

Results

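The mRNA levels of 9 chemokine receptor genes (Ccr1, Ccr2, Ccr3, Ccr7, Ccrl2, Cx3cr1, Cxcr4, Cxcr3 and Ackr3) were followed in mouse macrophages that carry or lack the nuclear receptor Nur77 over 18 h of LPS stimulation. These 9 were taken by symbol from the 25067 named genes of the RNA-seq count table, each read at the transcript with its highest mean count. Bone marrow-derived macrophages (BMDMs) were grown from male C57Bl6/J mice aged 6 to 12 weeks, with L929-conditioned medium as the source of growth factor. BMDM-WT came from wild-type littermates and BMDM-Nur77-KO from mice with a whole-body deletion of Nr4a1, the gene for Nur77, made by crossing a loxP-flanked allele with mice in which the CMV promoter drives Cre, with Cre later bred out (the labels name the genotypes wt and cre). Cells of both genotypes were collected before LPS (0 h) and after 1, 5 and 18 h with 100 ng/ml LPS, a bacterial cell wall component that activates the receptor TLR4, which gave 8 groups of 4 libraries and 32 libraries in all. The cells were plated as 4 replicates and the number of animals behind them was not given in the sources used here, so the p-values measure the spread between these libraries, which may be technical.

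Chemokine receptors are G protein-coupled receptors that read gradients of chemokines, small secreted proteins, and steer migrating leukocytes. Ccr1, Ccr2 and Ccr3 respond to inflammatory CC chemokines. Ccr2 is known for the exit of monocytes from bone marrow and Ccr3 for eosinophil recruitment. Ccr7 guides mature dendritic cells and lymphocytes to lymph nodes, Cxcr4 binds Cxcl12 and retains leukocytes in bone marrow, Cxcr3 binds the interferon-induced chemokines Cxcl9, Cxcl10 and Cxcl11, and Cx3cr1 binds the membrane-bound chemokine Cx3cl1. Ccrl2 and Ackr3 are atypical receptors that do not couple to G proteins in the usual way. Ccrl2 presents the chemoattractant chemerin to other cells and Ackr3 scavenges Cxcl12. Ccr1, Ccr2, Ccr3, Ccrl2 and Cx3cr1 lie on chromosome 9 of the mouse genome (build mm10).

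The libraries held between 8742362 and 15780926 counts over named genes, with a median of 11847140. Levels are given as CPM (counts scaled to the library total) with the TMM scaling of edgeR, and levels of different genes are compared only as RPKM, which also divides by transcript length. Nr4a1 tracked the labels at the first 3 time points. Its level at 1 h was 438 ± 60.2 CPM in BMDM-WT and 191 ± 40 CPM in BMDM-Nur77-KO (SD, n = 4), a log2 difference of -1.20 (adjusted p = 1.9e-06), so reads on this gene remained in the knockout. All 9 macrophage markers passed the expression filter, with summed levels from 12400 to 19700 CPM. The library KO 5 h replicate 1 deviated most from its group, with a median absolute log2 deviation of 0.465 over genes against a median of 0.108 over libraries, followed by KO 18 h replicate 4 with 0.327. Results at 5 and 18 h are therefore also given without these libraries where they moved.

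Of the 9 receptors, 7 passed the filter of a mean RPKM above 1 in at least 1 group and were tested among 11190 genes by edgeR's quasi-likelihood test, where a call is an adjusted p below 0.05. Ccr7 passed only through its level in BMDM-Nur77-KO at 18 h, where it reached 2.16 RPKM. Cx3cr1 missed the filter with a highest group mean of 0.905 RPKM, and Ackr3 (chr1:90203980-90215724) had 0 counts in all 32 libraries. Since 3 counts equal 0.156 to 0.366 CPM in these libraries, the Ackr3 mRNA level was below that limit, which covers counting error only.

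LPS changed which receptor transcripts were most abundant. Per transcript length, Ccr1 led in untreated BMDM-WT with 51 ± 3.58 RPKM, followed by Cxcr4 with 36.6 ± 7.6, Ccr3 with 34 ± 3.16 and Ccr2 with 16.1 ± 2.28 RPKM (SD, n = 4), whereas Ccrl2 stood at 5.25 ± 0.255 RPKM. From 1 h on, Ccrl2 was the leading receptor transcript in both genotypes. After 18 h, Ccrl2 reached 69.7 ± 4.56 RPKM in BMDM-WT and 172 ± 37.1 RPKM in BMDM-Nur77-KO, and Ccr1 followed with 20.4 ± 2.41 and 16.2 ± 2.53 RPKM. The end of the order differed between the genotypes: at 18 h Ccr7 stood at 2.16 ± 0.704 RPKM in BMDM-Nur77-KO, with libraries that overlapped those of Ccr2, Cxcr3 and Ccr3, and at 0.716 ± 0.0987 RPKM in BMDM-WT, below Ccr2 and Ccr3, while Ccr3 stood at 1.11 ± 0.117 and 2.56 ± 0.44 RPKM in the same order.

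**Figure D1:**
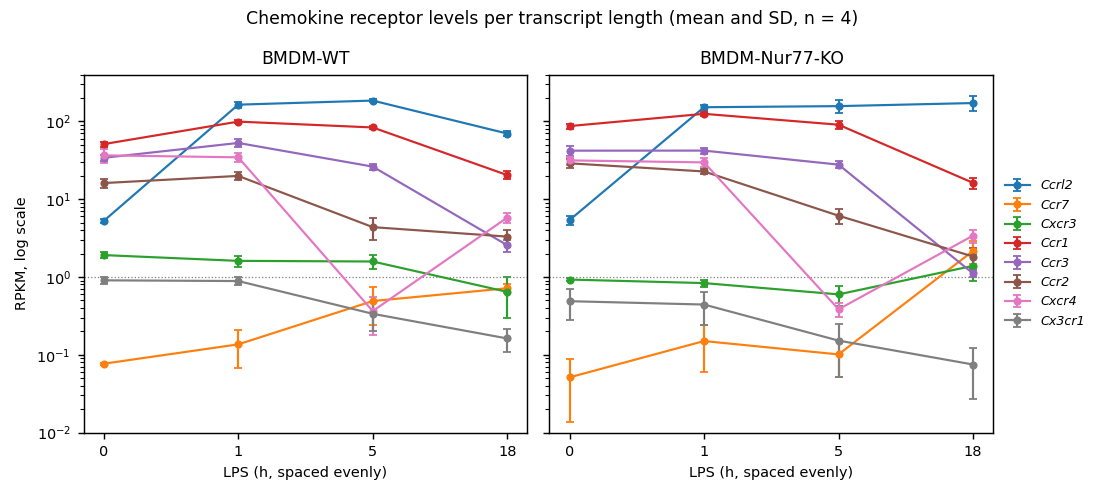
Mean level of each detected receptor (RPKM on a log axis, error bars SD, n = 4) by hours of LPS (spaced evenly) in BMDM-WT on the left and BMDM-Nur77-KO on the right, with the dotted line at 1 RPKM. Ccrl2 starts near 5 RPKM and leads from 1 h on, Cxcr4 drops below 1 RPKM at 5 h and partly recovers, and Ccr7 exceeds 1 RPKM only in BMDM-Nur77-KO at 18 h.

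In wild-type cells Ccrl2 and Ccr7 ended higher after 18 h of LPS and the other tested receptors ended lower, Ccr1 and Ccr3 after a first rise. At 1 h, 3 of the 7 tested receptors had risen (Ccr1, Ccr3 and Ccrl2), where 20.3% of all tested genes were called in either direction and 10.1% were called higher. At 5 h, 6 were called, 3 higher and 3 lower, against 70.2% of all tested genes (30.1% higher and 40.1% lower), so this count is near the background. After 18 h all 7 tested receptors were called, 2 higher (Ccrl2 and Ccr7) and 5 lower, against 66.4% of all tested genes (32.4% higher and 33.9% lower). Their median log2 fold change at 18 h was -1.55, while that of all tested genes was 0. In BMDM-Nur77-KO, 2 of the 7 were called at 1 h (12.3% of all tested genes), 4 at 5 h (71.4%) and 7 at 18 h (69.5%), the last including Ccr7, which was tested only because of this group.

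Ccrl2 was the receptor with the steepest induction by LPS at 1 h. Its 4 untreated BMDM-WT libraries held 13.0, 12.0, 13.4 and 13.3 CPM, and the 4 libraries at 1 h held 454, 400, 374 and 385 CPM. The groups were far apart and the rise was 31.3-fold (log2 4.97, SE 0.15, adjusted p = 3.0e-22). In BMDM-Nur77-KO the level moved from 13.2 ± 1.68 to 374 ± 29.5 CPM over the same hour, a 28.2-fold rise (adjusted p = 6.9e-22). At 5 h the level was 454 ± 23.8 CPM in BMDM-WT and 386 ± 74.7 CPM in BMDM-Nur77-KO. The genotypes overlapped at 0, 1 and 5 h, with adjusted p from 0.16 to 0.88 for the difference.

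After 18 h the genotypes separated. Ccrl2 had fallen to 157, 183, 177 and 168 CPM in BMDM-WT, whereas BMDM-Nur77-KO held 459, 470, 479 and 287 CPM. Every knockout library thus lay above every wild-type library, although replicate 4 was well below the other 3. The level in BMDM-Nur77-KO was 2.47-fold that in BMDM-WT (log2 1.31, SE 0.13, adjusted p = 2.7e-09). Between 5 and 18 h Ccrl2 fell by 1.41 on the log2 scale in BMDM-WT (SE 0.13, adjusted p = 3.6e-11), and its log2 change in BMDM-Nur77-KO was 0.13 (95% interval -0.11 to 0.38, adjusted p = 0.35). The log2 response to 18 h of LPS exceeded that of BMDM-WT by 1.27 (SE 0.19, adjusted p = 2.4e-05 for the interaction of genotype and LPS). Without KO 18 h replicate 4 the genotype difference was 1.45 and the change from 5 to 18 h in the knockout was 0.28 (adjusted p = 0.019), which passes the threshold.

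Ccrl2 lies at chr9:111054834-111057518 on the minus strand. RefSeq gives it 3 promoter windows, each from 250 bases before to 50 bases after an annotated start. The window at chr9:111057469-111057768 (GRCm38.p6, minus strand) is shown because this receptor had the largest response to LPS at 1 h and this window holds a motif match, while the other windows of Ccrl2 hold none. Windows of this kind were searched on both strands for the AP-1 motif TGANTCA, the NBRE motif AAAGGTCA to which Nur77 can bind as a monomer, the ISRE motif and the NF-kB motif, known from immediate-early, inflammatory and interferon-responsive genes. The capitals mark a match to NF-kB on both strands, whose first base lies 56 bases before the start.
Ccrl2 promoter: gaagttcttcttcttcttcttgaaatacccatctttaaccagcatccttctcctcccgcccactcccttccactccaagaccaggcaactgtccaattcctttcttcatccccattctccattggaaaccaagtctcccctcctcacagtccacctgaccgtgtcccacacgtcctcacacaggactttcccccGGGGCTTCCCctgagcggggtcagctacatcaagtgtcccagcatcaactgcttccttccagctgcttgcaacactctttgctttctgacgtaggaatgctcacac
Of the 32851 windows in the reference, 8.46% hold the NF-kB motif, 7.81% the AP-1 motif, 3.44% the ISRE motif and 1.51% the NBRE motif. Windows were found for 8 of the 9 receptors (10 windows in all, 300 bases each), and beside this one matches were present in those of Ccr1 and Ccr3. Such a match is a description of the letters and not a binding site.

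Ccr1, the receptor for Ccl3 and related inflammatory chemokines, was more abundant in knockout than in wild-type cells at 0 h and lost this lead with time. Untreated BMDM-WT held 144, 131, 151 and 153 CPM and untreated BMDM-Nur77-KO 258, 234, 266 and 228 CPM. The groups did not overlap, and the knockout level was 1.71-fold the wild-type level (log2 0.77, SE 0.10, adjusted p = 1.1e-06). At 1 h, Ccr1 had risen 1.95-fold in BMDM-WT to 281 ± 14.1 CPM (adjusted p = 2.3e-09) and 1.44-fold in BMDM-Nur77-KO to 354 ± 23.1 CPM (adjusted p = 1.3e-04), the highest group mean of this gene. The remaining log2 difference between genotypes was 0.33 at 1 h (adjusted p = 0.03). That call was lost without KO 1 h replicate 2 or 3 or without WT 1 h replicate 1, 2 or 3, with adjusted p up to 0.098. At 5 h the level was 236 ± 10.3 CPM in BMDM-WT and 257 ± 30.3 CPM in BMDM-Nur77-KO, a log2 difference of 0.12 (95% interval -0.07 to 0.31, adjusted p = 0.36).

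Between 5 and 18 h, Ccr1 fell in both genotypes. The 18 h libraries held 54.3, 63.2, 63.9 and 50 CPM in BMDM-WT and 51.8, 38.4, 41.2 and 52.3 CPM in BMDM-Nur77-KO. These groups overlapped, and the knockout was lower by a log2 difference of -0.33 (SE 0.10, adjusted p = 0.015). This call was lost without KO 18 h replicate 2 or 3 and without WT 18 h replicate 2 or 3, with adjusted p between 0.052 and 0.071, and in a fit of only the libraries compared (adjusted p = 0.1). Against 0 h the log2 change was -1.32 in BMDM-WT and -2.42 in BMDM-Nur77-KO, and the difference of these responses was -1.1 (SE 0.14, adjusted p = 1.7e-06). The response to 5 h of LPS also differed, by -0.65 (SE 0.14, adjusted p = 0.0047), and by -0.57 (adjusted p = 0.0065) without KO 5 h replicate 1. Over the 8 groups, KO 1 h stood alone at the top and WT 1 h, KO 5 h, KO 0 h and WT 5 h overlapped as neighbours, with WT 0 h below them and both 18 h groups last.

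Ccr3 was raised by 1 h of LPS in wild-type cells, with values of 109, 126, 107 and 103 CPM at 0 h and 162, 171, 158 and 200 CPM at 1 h. The groups did not overlap, and the rise was 1.55-fold (log2 0.64, SE 0.11, adjusted p = 4.5e-05). In BMDM-Nur77-KO the values were 161, 137, 142 and 110 CPM at 0 h and 119, 148, 140 and 144 CPM at 1 h, with a log2 change of 0 (95% interval -0.21 to 0.22). The responses of the genotypes differed by -0.63 on the log2 scale, which missed the threshold over all genes (SE 0.15, adjusted p = 0.17) and passed it with DESeq2 (adjusted p = 0.04). At 0 h the knockout libraries overlapped the wild-type libraries, with a log2 difference of 0.30 (adjusted p = 0.065), which passed the threshold with DESeq2 (adjusted p = 0.039). The genotypes did not overlap at 1 h, yet their log2 difference of -0.33 also missed the threshold (adjusted p = 0.074) and passed it in a fit of only the libraries compared (adjusted p = 0.016).

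By 18 h, Ccr3 had fallen to 8.96, 8.76, 9.56 and 6.3 CPM in BMDM-WT and to 3.93, 3.11, 3.63 and 3.91 CPM in BMDM-Nur77-KO. All 4 knockout libraries lay below the lowest wild-type library. Compared with 0 h, 7.55% of the level was left in BMDM-WT (adjusted p = 3.6e-21) and 2.67% in BMDM-Nur77-KO (adjusted p = 6.4e-24). The knockout level at 18 h was 43.6% of the wild-type level (log2 -1.20, SE 0.15, adjusted p = 5.4e-07), and the responses differed by -1.50 (SE 0.19, adjusted p = 1.8e-06). Ccr3 is best known from eosinophils, so their markers were read in the same libraries. Of 9 eosinophil, basophil and mast cell markers, Epx, Fcer1a and Tpsb2 were at 0 in all 32 libraries and 7 never exceeded 3 counts. The summed level of the list was 2.66 to 3.35 CPM in untreated BMDM-WT and 8.12 to 10.4 CPM in untreated BMDM-Nur77-KO. At 18 h it was 0.69 to 1.46 CPM in BMDM-WT and 2.31 to 3.02 CPM in BMDM-Nur77-KO, nearly all of it from Siglecf. The list was thus higher in the knockout at 18 h, where Ccr3 was lower. The part of these markers in the Ccr3 result was not tested.

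Ccr2 fell earlier than Ccr3, with most of its fall done by 5 h. Untreated BMDM-WT held 48.2, 57.9, 43.7 and 43.0 CPM and untreated BMDM-Nur77-KO 93.0, 93.2, 90.6 and 69.3 CPM. The groups were separate, and the knockout level was 1.79-fold the wild-type level (log2 0.84, SE 0.17, adjusted p = 7.7e-04). At 1 h the genotypes overlapped at 59.7 ± 7.16 and 68.1 ± 5.62 CPM (adjusted p = 0.65). After 5 h the level had dropped to 13.1 ± 4.1 CPM in BMDM-WT, 27.2% of its level at 0 h (adjusted p = 2.3e-10), and to 18.4 ± 3.95 CPM in BMDM-Nur77-KO, 21.2% of its level at 0 h (adjusted p = 2.0e-12). The genotypes overlapped at 5 h, and their log2 difference of 0.48 missed the threshold (SE 0.19, adjusted p = 0.066). It passed with DESeq2 (adjusted p = 0.041) and without KO 5 h replicate 3 (adjusted p = 0.029) or WT 5 h replicate 4 (adjusted p = 0.024). Without KO 5 h replicate 1 it was 0.34 (adjusted p = 0.28).

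The order of the genotypes was inverted for Ccr2 at 18 h. The libraries held 9.6, 10.2, 12.3 and 7.5 CPM in BMDM-WT and 6.61, 3.2, 5.45 and 6.68 CPM in BMDM-Nur77-KO. No knockout library reached the lowest wild-type library, and the log2 difference was -0.85 (SE 0.21, adjusted p = 0.004). Relative to 0 h, Ccr2 fell by 2.28 on the log2 scale in BMDM-WT and fell by 3.97 in BMDM-Nur77-KO, and these responses differed by -1.69 (SE 0.27, adjusted p = 5.9e-05). Between 5 and 18 h the fall continued in BMDM-Nur77-KO (log2 -1.74, adjusted p = 1.2e-08), whereas the wild-type change of -0.41 missed the threshold (adjusted p = 0.076) and passed it with DESeq2 (-0.45, adjusted p = 0.036), without WT 5 h replicate 2 (-0.56, adjusted p = 0.016) and without WT 18 h replicate 3 (-0.53, adjusted p = 0.033). Ccr2 is a defining gene of monocytes. Among the other monocyte markers, Ly6c2 had mean levels of 0.26 CPM in untreated BMDM-WT and 0.186 CPM in untreated BMDM-Nur77-KO, and 2.27 and 1.5 CPM at 18 h. F13a1 had mean levels of 23.2 and 17.7 CPM at 0 h and 1.33 and 1.04 CPM at 18 h, so the markers did not share 1 course. Spn had mean levels of 15.8 and 15.7 CPM at 0 h and 11.6 and 5.6 CPM at 18 h. Plac8 had mean levels of 0.143 and 0.101 CPM at 0 h and 1.9 and 1.2 CPM at 18 h. Treml4 had mean levels of 0.606 and 1.12 CPM at 0 h and 4.5 and 4.64 CPM at 18 h. At 18 h the knockout mean was lower for Ly6c2, F13a1, Spn and Plac8, like Ccr2, and not for Treml4. Ly6c1 stayed at or below 3 counts in every library. Their part in the Ccr2 result was not tested. In bulk RNA, fewer cells of a type and less RNA per cell cannot be told apart.

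Ccr1, Ccr3 and Ccr2 lie in this order on chromosome 9, within chr9:123962126-124109140, a stretch of 147 kb. It spans Ccr1 (chr9:123962126-123968692), Ccr3 (chr9:124017825-124031692) and Ccr2 (chr9:124101918-124109140). No other annotated gene covered their exons. Over the 32 libraries the log2 levels of Ccr1 and Ccr3 correlated with r = 0.94, those of Ccr2 and Ccr3 with r = 0.84 and those of Ccr1 and Ccr2 with r = 0.74, a description over libraries that share 8 groups. The promoter windows of Ccr1 and Ccr3 are shown because both hold motif matches, marked in capitals. In Ccr1 the capitals mark NF-kB, with the first base 74 bases before the start (GRCm38.p6, chr9:123968643-123968942, minus strand). In Ccr3 they mark first NF-kB, on the reverse strand and 179 bases before the start, and then AP-1, 144 bases before it (chr9:124021721-124022020, plus strand). The RefSeq start of this Ccr3 window lies inside the span of the counted transcript.
Ccr1 promoter: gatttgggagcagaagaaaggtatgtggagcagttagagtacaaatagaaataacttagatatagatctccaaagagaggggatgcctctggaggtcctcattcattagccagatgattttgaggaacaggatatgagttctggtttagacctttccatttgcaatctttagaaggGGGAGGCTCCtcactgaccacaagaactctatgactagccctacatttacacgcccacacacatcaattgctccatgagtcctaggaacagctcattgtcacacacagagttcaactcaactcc
Ccr3 promoter: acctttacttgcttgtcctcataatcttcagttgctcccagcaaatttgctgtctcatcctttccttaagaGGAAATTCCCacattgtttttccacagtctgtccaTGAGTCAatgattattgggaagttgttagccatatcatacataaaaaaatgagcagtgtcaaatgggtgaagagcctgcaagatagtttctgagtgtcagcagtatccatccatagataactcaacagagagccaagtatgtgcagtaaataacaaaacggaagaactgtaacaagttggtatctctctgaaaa

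**Figure D2:**
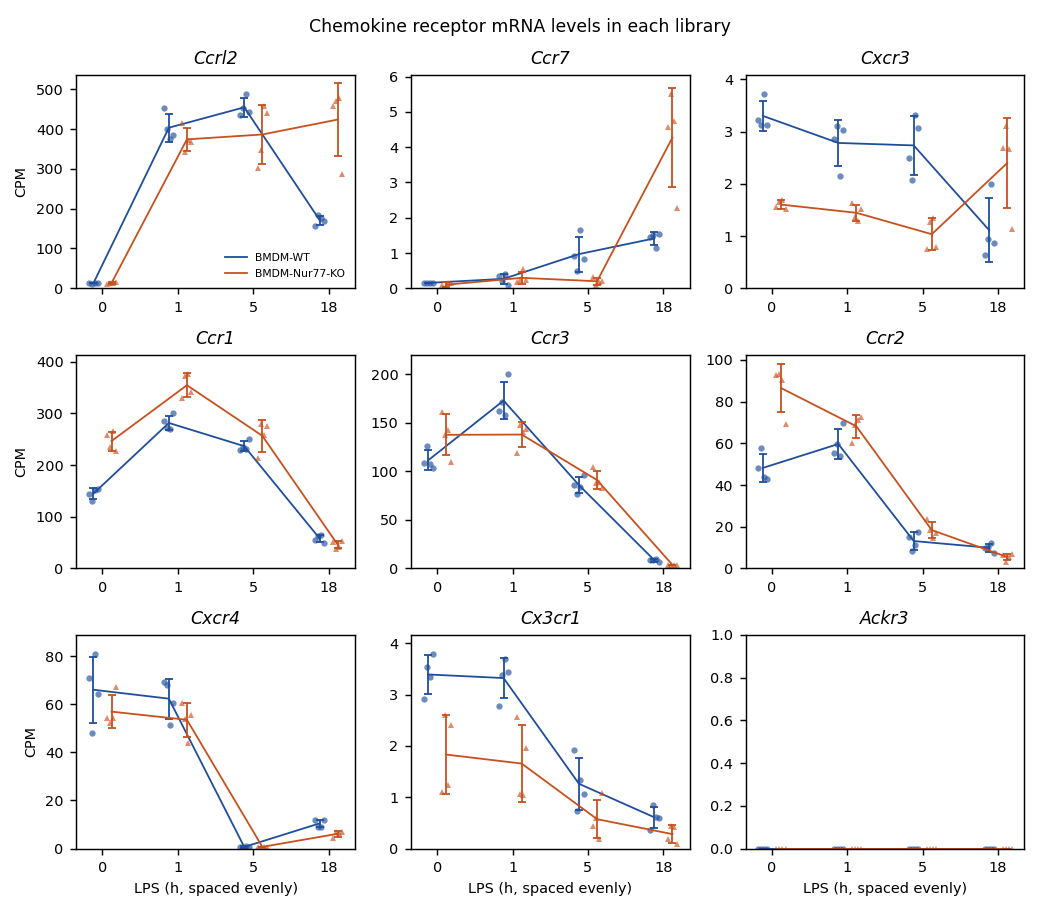
Level of each receptor (CPM, linear axes from 0) by hours of LPS (spaced evenly), with 1 symbol per library (circles BMDM-WT, triangles BMDM-Nur77-KO), lines through the group means and error bars of 1 SD (n = 4). At 18 h the BMDM-Nur77-KO libraries lie above all BMDM-WT libraries for Ccrl2 and Ccr7 and below them for Ccr3, Ccr2 and Cxcr4, while Ackr3 is at 0 throughout.

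Cxcr4 (chr1:128588199-128592299) was nearly shut off by 5 h of LPS and came back in part. The untreated libraries held 71.0, 48.2, 80.8 and 64.1 CPM in BMDM-WT and 54.1, 52.3, 54.1 and 67.2 CPM in BMDM-Nur77-KO. At 1 h the levels were 62.3 ± 8.35 and 53.5 ± 7 CPM, overlapping those at 0 h in both genotypes. At 5 h they were 0.453, 0.366, 1.11 and 0.707 CPM in BMDM-WT and 0.759, 0.753, 0.477 and 0.783 CPM in BMDM-Nur77-KO. The level left was 1.02% of that at 0 h in BMDM-WT (log2 -6.61, SE 0.24, adjusted p = 4.7e-21) and 1.24% in BMDM-Nur77-KO (log2 -6.34, SE 0.23, adjusted p = 5.9e-21).

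From 5 to 18 h, Cxcr4 rose 15.5-fold in BMDM-WT (adjusted p = 9.5e-14) and 8.76-fold in BMDM-Nur77-KO (adjusted p = 2.4e-11). It reached 11.9, 9.14, 9.03 and 11.8 CPM in the wild-type libraries and 4.38, 7.03, 6.36 and 6.76 CPM in the knockout libraries. The groups did not overlap at 18 h and the knockout level was 58.7% of the wild-type level (log2 -0.77, SE 0.18, adjusted p = 0.0015). At 0, 1 and 5 h the genotype difference ran from -0.22 to 0.06 with adjusted p of 0.33 or more. The difference between the responses to 18 h of LPS, -0.56 (95% interval -0.99 to -0.12), missed the threshold (adjusted p = 0.13).

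Ccr7 (chr11:99144199-99155077) was at the edge of detection before LPS and ended higher in the knockout. All 4 libraries together held 9 counts in untreated BMDM-WT and 5 counts in untreated BMDM-Nur77-KO, and 15 counts in each genotype at 1 h. At 5 h, BMDM-WT held 0.906, 0.487, 1.66 and 0.825 CPM (34 counts) and BMDM-Nur77-KO 0.325, 0.0837, 0.191 and 0.196 CPM (8 counts). The groups did not overlap, and the ratio of knockout to wild type from the summed counts was 0.194. Its 95% counting interval was 0.0777 to 0.428, with tags taken as independent. The edgeR fit gave a log2 difference of -2.29 (SE 0.52, adjusted p = 0.0022), and -2.60 (adjusted p = 0.0031) without KO 5 h replicate 1.

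At 18 h the order was the opposite. BMDM-WT held 1.46, 1.52, 1.13 and 1.55 CPM (63 counts) and BMDM-Nur77-KO 4.56, 5.51, 4.75 and 2.28 CPM (209 counts), with replicate 4 again the lowest of the knockout libraries but above every wild-type library. The knockout level was 3-fold that in BMDM-WT (log2 1.59, SE 0.27), given as a description with no test because Ccr7 entered the tested genes only through this knockout group. From 5 to 18 h the summed counts rose 22.3-fold in BMDM-Nur77-KO, also given as a description with no test for the same reason. The wild-type rise of 1.44-fold missed the threshold (adjusted p = 0.18) and passed it without WT 5 h replicate 3 (log2 0.92, adjusted p = 0.037). The fitted difference of the responses to 18 h of LPS, 2.20 on the log2 scale (SE 0.82), rests on the few counts at 0 h. Dendritic cell markers were read beside Ccr7, which mature dendritic cells express. The summed level of the 10 markers at 18 h was 51.1 to 60.3 CPM in BMDM-WT and 167 to 188 CPM in BMDM-Nur77-KO. Most of it came from Itgax (mean 35 and 102 CPM), Ccl22 (11.3 and 58.2 CPM), Clec9a (3.51 and 12.1 CPM) and Fscn1 (4 and 7.21 CPM). The sum was also higher in untreated BMDM-Nur77-KO (433 to 475 CPM, against 159 to 206 CPM in BMDM-WT), where Ccr7 had 5 and 9 counts. The defining genes Flt3 and Zbtb46 reached at most 4 and 15 counts in any library. Their part in the Ccr7 result was not tested.

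Cxcr3 (chrX:101731535-101734147) was a low transcript whose genotype difference changed sign. Untreated BMDM-WT held 3.22, 3.13, 3.72 and 3.13 CPM and untreated BMDM-Nur77-KO 1.55, 1.65, 1.69 and 1.52 CPM, with a wide gap between the groups. The knockout level was 49% of the wild-type level (log2 -1.03, SE 0.24, adjusted p = 0.0034). It remained lower at 1 h (log2 -0.94, adjusted p = 0.018) and at 5 h, where BMDM-WT held 2.49, 2.07, 3.32 and 3.06 CPM and BMDM-Nur77-KO 0.759, 1.26, 1.34 and 0.783 CPM (log2 -1.38, SE 0.29, adjusted p = 0.001). The groups did not overlap at any of these times. The call at 1 h was lost without KO 1 h replicate 2 or 3 or WT 1 h replicate 2, with adjusted p from 0.058 to 0.062.

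After 18 h, Cxcr3 had fallen to 0.640, 0.952, 2.00 and 0.862 CPM in BMDM-WT, 34.2% of its level at 0 h (adjusted p = 4.7e-06), while BMDM-Nur77-KO held 2.68, 3.11, 2.66 and 1.14 CPM. The groups overlapped through WT replicate 3 and KO replicate 4. The knockout was higher by 1.09 on the log2 scale (SE 0.27, adjusted p = 0.0038), by 1.32 without KO 18 h replicate 4, and missed the threshold in a fit of only the libraries compared (adjusted p = 0.095). The responses to 18 h of LPS differed by 2.12 (SE 0.36, adjusted p = 1.4e-04). The rise within BMDM-Nur77-KO from 0 to 18 h was 1.49-fold with overlapping groups (adjusted p = 0.044), and leaving out any 1 KO library at 0 h, or KO 18 h replicate 1, 2 or 3, lost that call with adjusted p up to 0.16. T and NK cells are the classical Cxcr3-bearing cells. Their markers Cd3e and Ncr1 reached at most 4 counts in any library, and the summed level of 9 such markers was 1.36 to 1.82 CPM in untreated BMDM-WT and 0.444 to 1 CPM in untreated BMDM-Nur77-KO, then 3.33 to 4.83 and 2.77 to 4.18 CPM at 18 h, with 22.5 to 38.6 CPM at 5 h over both genotypes, mostly from Lck. Their part in the Cxcr3 result was not tested.

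Cx3cr1 (chr9:120048683-120068296) was low in these cells and declined with LPS in both genotypes. BMDM-WT held 2.91, 3.54, 3.34 and 3.79 CPM at 0 h and 0.366, 0.857, 0.608 and 0.604 CPM at 18 h. BMDM-Nur77-KO held 1.1, 2.6, 1.23 and 2.4 CPM at 0 h and 0.179, 0.445, 0.419 and 0.0815 CPM at 18 h. Every library at 18 h lay below every library of the same genotype at 0 h. Under the wider expression filter of edgeR (filterByExpr, 12215 genes), the log2 change at 18 h was -2.45 in BMDM-WT (SE 0.35, adjusted p = 4.0e-07) and -2.65 in BMDM-Nur77-KO (SE 0.44, adjusted p = 3.4e-06). In that fit the knockout was lower at 0 h (log2 -0.86, adjusted p = 0.043) and at 1 h (log2 -1.01, adjusted p = 0.033), where 12.1% and 6.56% of the genes were called, and the differences of -1.14 at 5 h and -1.06 at 18 h missed the threshold (adjusted p = 0.064 and 0.18).

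Set side by side, Ccr1, Ccr2 and Cxcr3 were called in opposite directions between the genotypes at 0 and 18 h. How many of all tested genes did so was not counted, and the groups of Ccr1 and Cxcr3 overlapped at 18 h. At 0 h, 3 of the 7 tested receptors were called, Ccr1 and Ccr2 higher and Cxcr3 lower in BMDM-Nur77-KO, against 12.7% of all tested genes (6.33% higher and 6.33% lower). At 1 h, 2 were called (Ccr1 higher and Cxcr3 lower), where 6.53% of all tested genes were called, 3.48% higher and 3.06% lower. At 5 h, 2 were called (Ccr7 and Cxcr3, both lower), where 24.4% of all tested genes were called and 10.7% were lower. At 18 h, all 7 tested receptors were called, against 21.7% of all tested genes. Ccr7 was among the tested genes only through its level in this knockout group, so its call lends nothing to this count and 6 of the other 6 remain. The receptors were chosen with earlier results of these data known, so the counts are a description. In a fit of only the libraries compared, 5 of the 7 were called, without Ccr1 and Cxcr3. The share of all tested genes is not given for that fit. Ccrl2, Ccr7 and Cxcr3 were higher in BMDM-Nur77-KO (11.7% of all tested genes were called higher) and Ccr1, Ccr2, Ccr3 and Cxcr4 were lower (9.93% were called lower). In the test of the interaction of genotype and LPS, edgeR called 0 of the 7 and 0.0715% of all tested genes at 1 h. Of the 7, 3 had an unadjusted p below 0.05 there, and DESeq2, for which no share is given, called 1. By edgeR, 1 was called at 5 h (3.12% of all tested genes) and 5 at 18 h (9.42%), with Cxcr4 and Ccr7 short of the threshold. Without KO 18 h replicate 4, Ccr7 also passed (adjusted p = 0.032), which lends no support for the reason above. These comparisons share libraries, so their counts are not independent.

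**Figure D3:**
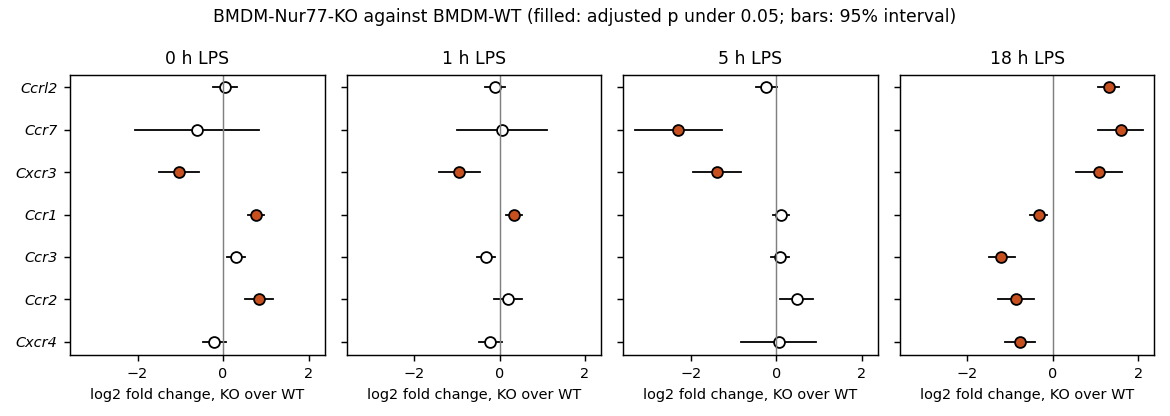
Log2 fold change of BMDM-Nur77-KO over BMDM-WT for the 7 tested receptors at each time of LPS, with bars for the unadjusted 95% interval and filled points where the adjusted p is below 0.05. All 7 points are filled at 18 h, 3 to the right of 0 and 4 to the left (Ccr7 was among the tested genes only through its knockout level at that time), whereas Ccr1 and Ccr2 lie to the right and Cxcr3 to the left at 0 h.

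The ligands of these receptors were read in the same libraries. Of 22 listed ligands, 17 passed the expression filter, and after 5 h of LPS 13 of them were higher and 1 was lower in BMDM-WT, where 30.1% and 40.1% of all tested genes were. Their median log2 fold change was 4.02, against -0.14 over all tested genes. The Cxcr3 ligand Cxcl10 rose from 5.45 ± 0.63 to 6750 ± 113 CPM (log2 10.28, adjusted p = 2.5e-32). Cxcl11, a further Cxcr3 ligand, went from 0 counts in all 4 untreated libraries to 126 ± 5.74 CPM, at least 551-fold higher with the floor of 3 counts per library. The Ccr1 ligand Ccl6 fell from 1530 ± 84.2 to 1280 ± 39.6 CPM (adjusted p = 0.002). Cxcl12, the ligand shared by Cxcr4 and Ackr3, was at or below 0.0854 CPM in every group mean, and Ccl19, a ligand of Ccr7, was at 0 in every library.

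Between the genotypes at 18 h, 6 of the 17 tested ligands were higher in the knockout and 1 was lower, where 11.7% and 9.93% of all tested genes were. Ccl3, which binds Ccr1, stood at 467 ± 41.4 CPM in the knockout and 155 ± 8.38 CPM in the wild type (log2 1.59, adjusted p = 8.9e-13). Cxcl9, which binds Cxcr3, stood at 1170 ± 376 and 544 ± 37.7 CPM (log2 1.11, adjusted p = 0.026). The Ccr3 ligand Ccl24 was lower, at 0.368 ± 0.0268 against 0.83 ± 0.28 CPM (adjusted p = 0.027), with at most 12 counts in a library.

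Other chemokine receptors were mostly low: of 14 listed, 2 passed the filter and 8 exceeded 3 counts in at least 1 library. Xcr1, a receptor known from cross-presenting dendritic cells, rose in BMDM-WT from 0.37 ± 0.258 to 12.9 ± 2.44 CPM at 5 h (adjusted p = 3.9e-15) and was more abundant in the knockout after 18 h (log2 0.87, adjusted p = 0.016). Ccr1l1, a relative of Ccr1, fell at 5 h (log2 -1.60, adjusted p = 3.2e-04) and was lower in the knockout at 18 h (log2 -1.85, adjusted p = 0.0053). As it resembles Ccr1 in sequence, reads could be shared between the 2 genes, and its highest count at 18 h was 18. Among other chemoattractant receptors, 10 of 13 passed the filter, 4 higher and 5 lower at 5 h in BMDM-WT, close to the 30.1% and 40.1% of all tested genes. The formyl peptide receptors Fpr2 and Fpr1 rose by 5.96 and 4.57 on the log2 scale, and Gpr183, the oxysterol receptor, and S1pr1, the sphingosine 1-phosphate receptor, fell by 4.46 and 3.13. At 18 h, 1 of the 10 was higher and 5 were lower in BMDM-Nur77-KO, against 11.7% and 9.93% of all tested genes. The complement receptor C5ar2 was at 1.77 ± 0.734 against 4.86 ± 0.69 CPM, S1pr1 at 4.51 ± 0.605 against 11.6 ± 1.82 CPM, and Ptafr, the receptor for platelet-activating factor, was higher by 0.28 on the log2 scale (adjusted p = 0.027).

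Below the receptors, the G protein and PI3K signalling list had 19 of 20 genes tested, 12 higher and 4 lower at 5 h in BMDM-WT, against 30.1% and 40.1% of all tested genes. Pik3r5 and Pik3r6, the regulatory subunits of PI3K gamma, rose to 732 ± 39.5 and 65.7 ± 1.43 CPM (log2 2.51 and 2.09), and the phospholipase Plcb2 and the G protein subunit Gng2 fell (log2 -1.93 and -1.08). At 18 h, 1 of the 19 was higher and 4 were lower in BMDM-Nur77-KO (11.7% and 9.93% of all tested genes), among them Gng12 (log2 0.51), Plcb2 (log2 -0.85) and Gng10 (log2 -0.41). Of 14 tested desensitisation and RGS genes, which end receptor signalling, 3 were higher and 10 lower at 5 h in BMDM-WT, where 30.1% and 40.1% of all tested genes were. The receptor kinase Grk3 rose from 7.17 ± 0.497 to 34.5 ± 2.3 CPM and Rgs14 by 1.40 on the log2 scale. The arrestin Arrb1 fell from 185 ± 15.9 to 29.6 ± 3.51 CPM and Rgs18 by 1.79 on the log2 scale. At 18 h, 2 of the 14 were higher and 4 were lower in BMDM-Nur77-KO, where 11.7% and 9.93% of all tested genes were. Rgs1 stood at 559 ± 170 against 166 ± 35.3 CPM (log2 1.75, adjusted p = 8.6e-08) and Rgs16 at 1.34 ± 0.191 against 0.772 ± 0.319 CPM (adjusted p = 0.043), while Arrb1 stood at 70.4 ± 13.5 against 121 ± 12 CPM and the kinase Grk5 at 7.56 ± 0.232 against 11.2 ± 1.31 CPM.

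The genes whose log2 levels followed each receptor most closely over the 32 libraries differed from receptor to receptor. For Ccrl2 these were Gadd45b (r = 0.994), Irf1 and Ptgs2 (both r = 0.979). Cxcr4 was followed by Mtss1 (r = 0.991), Hs6st1 and Lpin1, Ccr3 by Dab2 (r = 0.989), Emp1 and Fat3, and Ccr2 by Rgs18 (r = 0.978), Slc39a10 and Lrrc39. Ccr1 ran closest to Anxa1 (r = 0.959), Hbegf and Tacc1, and Ccr7 to Mreg (r = 0.936), St3gal5 and Zcchc4. For Cxcr3 the nearest gene, Ptpro, reached r = 0.802. The libraries share groups and depth, so these values describe likeness over the same 8 groups.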

How the data were processed

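Total mRNA of 32 BMDM libraries was prepared with a strand-specific kit and sequenced in pairs. The authors aligned the reads to mm10 with HISAT2 2.1.0, filtered them on mapping quality and deposited raw counts per RefSeq transcript made with HOMER, in which each mate adds to the tag count, so 28.6% of the values were not whole. These estimated counts, as deposited, were rounded to whole numbers. Whether counting used strand was not given in the sources used here. Of 42361 transcripts, 93 had no gene name (0.233 to 1.373% of the tags per library) and were left out. The transcript with the highest mean count stood for each gene. Genes with a mean RPKM above 1 in at least 1 group were kept (11190). edgeR 4.0.16 in R 4.3.3 was fitted with TMM factors (0.716 to 1.27), 1 mean per group and the quasi-likelihood test, with p-values adjusted by Benjamini-Hochberg across the tested genes and a threshold of 0.05. The study's own methods used DESeq2. An interaction is the difference of the LPS responses of the genotypes. DESeq2 1.42.0, its size factors, 2 other filters, fits of the compared libraries only, a replicate block, a limit on the fold change, every transcript as its own row and leaving out each library were the alternatives. A self-test on simulated counts was run before the fits. Between replicates of a group the mean chi-square per gene ran from 1.93 to 116. As each mate adds to the tag count, tags are not independent, so the lowest values need not exceed counting noise. The replicate numbers did not pair the libraries. Correlations used log2(CPM + 0.5). Promoter sequences came from RefSeq (GRCm38.p6). Named genes were all 9 receptors, the check gene Nr4a1, up to 2 called genes with the largest change in each direction per list (WT at 5 h, and KO against WT at 18 h), the 3 genes closest to each receptor, and defining markers. The receptors and lists were chosen with earlier results of these data known. Intervals on counts and floors cover counting error only. They take tags as independent, which the mates of a pair are not, so they may be too narrow. The expression of 1 listed monocyte marker is not reported here, and no sum over that list is given.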

Additional observations from a re-analysis of the deposited data

Results flagged for a closer look

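In 6 of the 61 sets of 4 libraries examined (1 per receptor and group), 1 library lay apart from the other 3 by Dixon's criterion, which chance alone does in about 5% of sets. Ccrl2 was at 287 CPM in KO 18 h replicate 4, with the others at 459 to 479 CPM. In KO 0 h replicate 4, Ccr2 was at 69.3 CPM (others 90.6 to 93.2 CPM) and Cxcr4 at 67.2 CPM (others 52.3 to 54.1 CPM). The remaining ones were Cxcr4 at 0.477 CPM in KO 5 h replicate 3 (others 0.753 to 0.783 CPM), Ccr7 at 0.561 CPM in KO 1 h replicate 3 (others 0.172 to 0.226 CPM) and Cxcr3 at 3.72 CPM in WT 0 h replicate 3 (others 3.13 to 3.22 CPM).

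The LPS response differed between the genotypes in the edgeR interaction test for 5 receptors. At 18 h the difference on the log2 scale was -1.1 for Ccr1, -1.69 for Ccr2, -1.5 for Ccr3, 1.27 for Ccrl2 and 2.12 for Cxcr3, and at 5 h it was -0.65 for Ccr1.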

How the results depend on the processing

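No called result reversed its direction under the alternatives run, while fitted changes near 0 that were not called could change sign, such as Ccr7 between the genotypes at 1 h (0.06, range -0.42 to 0.31). With a limit on the log2 fold change (1 for LPS, 0.58 for genotype), the count of receptors called was 1 for LPS at 1 h in either genotype, 1 for the genotype comparison at 1 h and 2 for the knockout between 1 and 5 h. For the interaction at 1 h, DESeq2 called 1 receptor, a fit of only the compared libraries called 3, and leaving out single libraries gave 0 to 1. With every transcript as a row, 1 receptor was called in the genotype comparison at 1 h and 1 at 5 h, because Cxcr3 no longer passed the RPKM filter. Leaving out single libraries moved the genotype count at 1 h between 0 and 2. The other counts stayed within 1 of the main count when a library was left out. For the counts in this section the share of all tested genes called under the same setting is not given, so they have no background beside them. The replicate block changed 1 call, Cxcr3 in the knockout at 18 h against 0 h (adjusted p = 0.05 from edgeR), so that 6 rather than 7 receptors were called there. The replicate numbers did not pair the libraries: same-numbered libraries deviated together with a median r of -0.02, and 2 of 32 correlated best with their own number. Depth limits Ccr7, Cx3cr1 and Cxcr3, whose levels stayed below 6 CPM, and Ackr3.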
